A study of Saccharomyces cerevisiae with 15 samples.

Results

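The genes described here are 39 of the nuclear-encoded subunits of the yeast respiratory chain and ATP synthase. They were taken by systematic name from the 6600 gene identifiers of the expression table. They are the NADH dehydrogenases NDI1, NDE1 and NDE2, the 4 subunits of complex II (SDH1 to SDH4), 9 subunits of complex III, the cytochromes c CYC1 and CYC7, 9 subunits of complex IV (cytochrome c oxidase) and 12 subunits of the ATP synthase (complex V). RNA was sequenced from Saccharomyces cerevisiae BY4741, a wild-type laboratory strain, in 15 libraries, 3 in each of 5 groups. Lanthanum (La), a light rare earth element, was given for 1 h at 50 µM, its EC10, or at 160 µM, its EC50. Ytterbium (Yb), a heavy one, was given for 1 h at 6 µM, its EC10, or at 8 µM, its EC50. Control cultures were left untreated. EC10 and EC50 are the doses with 10 and 50 percent effect, and the effect measured is not given in the sources used here. All groups, controls included, grew in liquid yeast nitrogen base with β-glycerophosphate, a phosphate ester.

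Yeast mitochondria oxidize NADH without the proton-pumping complex I of mammals. NDI1 on the matrix side and NDE1 and NDE2 on the outer side of the inner membrane pass electrons from NADH to ubiquinone, as complex II does from succinate. Complex III passes them on to cytochrome c, complex IV from cytochrome c to oxygen, and the ATP synthase uses the resulting proton gradient. Genes of these complexes are repressed by glucose and activated by the Hap2/3/4/5 complex, which binds CCAAT in their promoters and whose HAP4 subunit is the limiting one. Several subunits exist in an aerobic and a hypoxic form. Each complex of the chain from complex III on, and the ATP synthase, also holds subunits encoded by mitochondrial DNA.

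Levels are normalized counts, which the authors made by dividing each library's gene counts by its size factor. A change is a difference of group means on the scale of log2(normalized count + 1), given ± the SE of a limma fit to all 15 libraries, and a gene is called at an adjusted p under 0.05. Coordinates are those of build R64. The recovered totals were 5629666 to 7183175 reads per library, and all 39 genes were among the 5567 tested. Libraries of a group differed by more than sampling noise (chi-square over degrees of freedom 2.92 to 27.1), and their log2 values correlated across genes with Pearson's r of 0.987 to 0.995. Genes are not independent replicates. In the strain check, the genes URA3 and MET17, deleted in BY4741, were at 0 reads throughout. For LEU2, which the strain also lacks, a single library (Yb EC10 library 7) held 1 read. HIS3, of which the strain lacks only part, had 349.9 to 507 normalized counts and checks nothing here. The 7 mitochondrially encoded subunit genes (COX1, COX2, COX3, COB, ATP6, ATP8 and OLI1) had 0 to 4 reads per library, with ATP8 at 0 in all 15, and could not be tested, so the nuclear subunits are described without them.

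Respiratory subunit mRNAs rose after exposure to either metal, with fewer of the 39 genes called at La EC50 than in the other exposed groups. Against control, 19 of the 39 genes rose at La EC10 (48.7%), 7 at La EC50 (17.9%), 17 at Yb EC10 (43.6%) and 20 at Yb EC50 (51.3%), by limma at an adjusted p under 0.05. Of all genes tested, 20.3%, 25.6%, 29.3% and 40.8% were called in either direction in the same comparisons. The share called higher was 10.2%, 12.6%, 15.2% and 20.6%. The median log2 change of the 39 genes was 0.24, 0.18, 0.23 and 0.19, beside 0.0061, 0.012, 0.0015 and -0.021 over all genes tested. No member was called lower in any of the 4 comparisons, where 562, 722, 782 and 1126 of the 5567 genes tested were. At an unadjusted p under 0.05, limma had 2 lower (COX9 and COX12, both at Yb EC50), and edgeR and DESeq2 called none lower. In limma, 2787 of the 5567 genes tested had such a p at Yb EC50, in either direction. A fit to the Yb EC50 and control libraries alone called ATP17 and COX12 lower. The 4 comparisons share the 3 control libraries and are given side by side. In bulk RNA, fewer cells with a transcript and less of it per cell cannot be told apart. The La EC10 count came to 12 without La EC10 library 13 or 15 or control library 2 or 3. On 13 of the libraries, La EC10 and La EC50 had 11 and 8 members called in limma. The counts were 10 and 7 in edgeR and 10 and 8 in DESeq2. In the direct comparison of the La doses, only NDE1 was called.

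Of the 39 genes, 5 were called in all 4 comparisons with control: SDH1, SDH2 and SDH4 of complex II, and QCR2 and QCR10 of complex III. Another 6 were called in 3 comparisons (NDE1, COR1, CYT1, RIP1, COX6 and ATP20) and 9 in 2 (NDI1, NDE2, SDH3, CYC7, COX4, COX5B, ATP1, ATP2 and ATP5). A further 7 were called in 1 (QCR6, QCR9, COX8, ATP3, ATP4, ATP7 and ATP15). The remaining 12 were called in none: QCR7, QCR8, CYC1, COX5A, COX7, COX9, COX12, COX13, ATP14, ATP16, ATP17 and ATP18. The same tally over all genes tested was not made. Repeated calls of a gene are not independent, because the comparisons share their control libraries. All 3 libraries of the exposed group lay above all 3 control libraries for 24 members at La EC10, 12 at La EC50, 20 at Yb EC10 and 22 at Yb EC50, where this held for 17.3%, 21.7%, 20.1% and 25.2% of all genes tested. At Yb EC50, 4 of the 39 members lay wholly below control (CYC1, COX9, COX12 and ATP17), where 1496 of the 5567 genes tested did. An F test over the 5 groups called 28 members, where it called 43.1% of all genes tested.

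**Figure D1:**
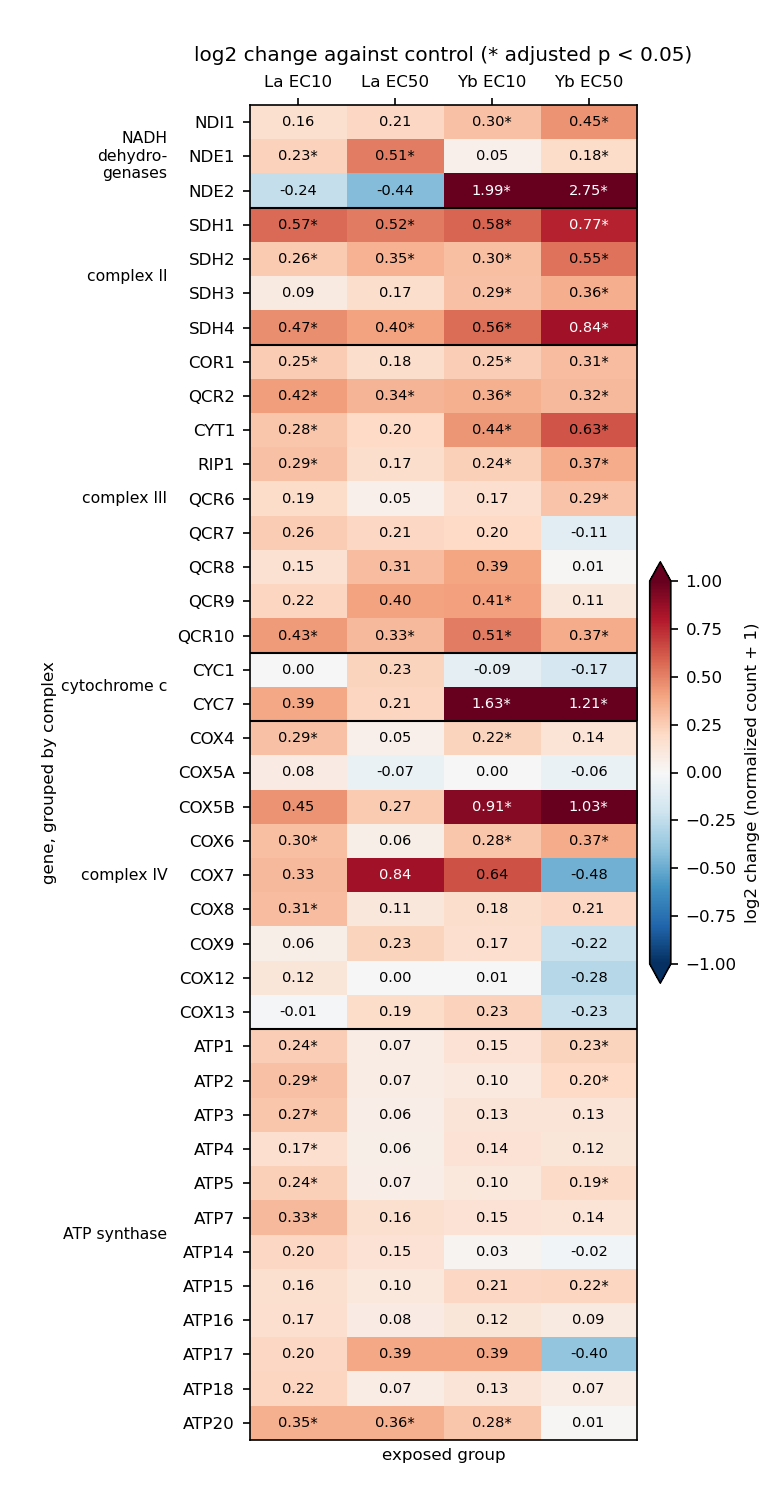
Log2 change against control (normalized count + 1) of the 39 genes, in rows grouped by complex, in the 4 exposed groups, in columns; red is higher and blue lower than control, and an asterisk marks an adjusted p under 0.05 (limma). Complex II is red in all columns, NDE2, CYC7 and COX5B are darkest in the Yb columns, and La EC50 has 7 asterisks, the fewest.

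The NADH dehydrogenases changed differently with the metal. The internal enzyme NDI1 and the minor external enzyme NDE2 rose with Yb at both doses, and the major external enzyme NDE1 rose with La at both doses and at Yb EC50. NDI1 (YML120C, chromosome XIII, 28266 to 29807) had 606, 617.8 and 645 normalized counts in the La EC10 libraries, 682, 603 and 650.4 at La EC50, 727, 634 and 695 at Yb EC10 and 832, 685 and 771 at Yb EC50. Control libraries had 559, 530.1 and 584. Every exposed library was above every control library, and the change passed the test at Yb EC10, 0.30 ± 0.078 (limma adjusted p = 0.0105), and at Yb EC50, 0.45 ± 0.078 (limma adjusted p = 0.000383). At La EC10 and La EC50 it was 0.16 ± 0.078 and 0.21 ± 0.078 and did not pass (limma adjusted p = 0.160 and 0.0612). NDE1 (YMR145C, chromosome XIII, 554793 to 556475) had 1291, 1279 and 1259 normalized counts in the La EC10 libraries, 1618, 1507 and 1530.4 at La EC50, 1156, 1126 and 1110.0 at Yb EC10 and 1239, 1258 and 1218 at Yb EC50. Control libraries had 976, 1202 and 1104. The La EC50 libraries were the highest, 0.51 ± 0.066 (limma adjusted p = 4.16e-05) against control, followed by La EC10, 0.23 ± 0.066 (limma adjusted p = 0.025), and Yb EC50, 0.18 ± 0.066 (limma adjusted p = 0.0368), while Yb EC10 overlapped with control.

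NDE2 (YDL085W, chromosome IV, 303211 to 304848) had 10.03, 3.70 and 12.7 normalized counts in the La EC10 libraries, 8.97, 6.38 and 5.405 at La EC50, 65.8, 23.6 and 43.9 at Yb EC10 and 89.1, 68.1 and 56.4 at Yb EC50. Control libraries had 10.4, 8.52 and 9.80. The 6 Yb libraries lay above the other 9, in which NDE2 had at most 12.7 normalized counts. Against control, NDE2 rose 3.98-fold at Yb EC10, a log2 change of 1.99 ± 0.40 (limma adjusted p = 0.00182), and 6.74-fold at Yb EC50, 2.75 ± 0.40 (limma adjusted p = 6.59e-05), on the scale of normalized count + 1. The La values, -0.24 ± 0.40 at EC10 and -0.44 ± 0.40 at EC50, did not pass (limma adjusted p = 0.719 and 0.444). The NDE2 calls held when any 1 library was left out. Those of NDE1 were lost at La EC10 without La EC10 library 13 or 15 or control library 1 or 3 (limma adjusted p 0.0541 to 0.0934) and at Yb EC50 without Yb EC50 library 4 or 5 or 6 or control library 1 or 3 (limma adjusted p 0.0602 to 0.183), and that of NDI1 at Yb EC10 without Yb EC10 library 7 or control library 2 (limma adjusted p 0.0501 to 0.0516).

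Complex II oxidizes succinate in the citric acid cycle and hands its electrons to ubiquinone. Of its 4 members, 3 were called in all 4 comparisons. The share called higher was 75% at La EC10, 75% at La EC50, 100% at Yb EC10 and 100% at Yb EC50. Of all genes tested, 10.2%, 12.6%, 15.2% and 20.6% were called higher in the same order. SDH1, SDH2 and SDH4 rose in all 4 exposed groups and SDH3 in both Yb groups, and the median change of the 4 genes was 0.36 at La EC10, 0.37 at La EC50, 0.43 at Yb EC10 and 0.66 at Yb EC50 (log2). SDH1 (YKL148C, chromosome XI, 169207 to 171129), the flavoprotein that oxidizes succinate, had 519.7, 632 and 622 normalized counts in the La EC10 libraries, 556, 558 and 590.0 at La EC50, 650.2, 560.2 and 572 at Yb EC10 and 743, 634 and 659.7 at Yb EC50. Control libraries had 383, 412 and 396. None of the groups overlapped with control, and the log2 change was 0.57 ± 0.085 at La EC10, 0.52 ± 0.085 at La EC50, 0.58 ± 0.085 at Yb EC10 and 0.77 ± 0.085 at Yb EC50 (limma adjusted p between 4.14e-06 and 0.000377). SDH4 (YDR178W, chromosome IV, 817950 to 818495), a membrane anchor, had 538, 539 and 540.5 normalized counts in the La EC10 libraries, 512, 515 and 518 at La EC50, 645, 513 and 572 at Yb EC10 and 806, 631 and 671 at Yb EC50. Control libraries had 391, 381 and 398. Its exposed libraries were likewise all above control, by 0.47 ± 0.087 (limma adjusted p = 0.00165), 0.40 ± 0.087 (limma adjusted p = 0.00369), 0.56 ± 0.087 (limma adjusted p = 0.000277) and 0.84 ± 0.087 (limma adjusted p = 2.31e-06) in the same order of groups.

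SDH3 (YKL141W, chromosome XI, 179667 to 180263), the other membrane anchor, changed least within complex II, with 1013, 1009.9 and 997 normalized counts in the La EC10 libraries, 1096, 990.4 and 1122 at La EC50, 1169.8, 1139 and 1170.0 at Yb EC10 and 1232, 1264 and 1159 at Yb EC50. Control libraries had 1031, 916 and 898. The Yb libraries were above control, 0.29 ± 0.065 (limma adjusted p = 0.00379) at EC10 and 0.36 ± 0.065 (limma adjusted p = 0.000493) at EC50, and the La groups overlapped with control, 0.09 ± 0.065 (limma adjusted p = 0.364) at EC10 and 0.17 ± 0.065 (limma adjusted p = 0.0622) at EC50. SDH2, the iron-sulfur subunit that carries electrons from SDH1 to ubiquinone, rose by 0.26 at La EC10, 0.35 at La EC50, 0.30 at Yb EC10 and 0.55 at Yb EC50 (limma adjusted p between 5.20e-06 and 0.008). No call of complex II against control was lost when any 1 library was left out.

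Of the 9 nuclear subunits of complex III, 5 rose at La EC10, 2 at La EC50, 6 at Yb EC10 and 6 at Yb EC50. These shares were 55.6%, 22.2%, 66.7% and 66.7%, beside 10.2%, 12.6%, 15.2% and 20.6% of all genes tested called higher. The core protein QCR2 and the small subunit QCR10 rose in all 4 groups. Cytochrome c1 (CYT1), the Rieske iron-sulfur protein (RIP1) and the other core protein (COR1) rose in all but La EC50. CYT1 (YOR065W, chromosome XV, 447439 to 448368), which hands electrons to cytochrome c, had 434, 428 and 473 normalized counts in the La EC10 libraries, 416, 396 and 449 at La EC50, 548, 465 and 483 at Yb EC10 and 611, 510.5 and 588 at Yb EC50. Control libraries had 374, 369 and 355. Its exposed libraries were all above control, with Yb EC50 the highest. The change was 0.28 ± 0.082 (limma adjusted p = 0.0258) at La EC10, 0.20 ± 0.082 (limma adjusted p = 0.0909) at La EC50, 0.44 ± 0.082 (limma adjusted p = 0.00112) at Yb EC10 and 0.63 ± 0.082 (limma adjusted p = 2.29e-05) at Yb EC50. QCR10 (YHR001W-A, chromosome VIII, 107826 to 108122), a small subunit with 2 coding exons, had 574, 548 and 629.7 normalized counts in the La EC10 libraries, 575, 484 and 576 at La EC50, 649, 573 and 635 at Yb EC10 and 648, 557 and 492 at Yb EC50. Control libraries had 472, 441 and 391.9. It was above control in every exposed library, by 0.43, 0.33, 0.51 and 0.37 in the same order (limma adjusted p between 0.002 and 0.030).

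QCR7 (YDR529C, chromosome IV, 1496165 to 1496548), a small subunit on the matrix side, had the smallest mean change of complex III, its values differing in sign between groups, with 1369, 1293 and 1477 normalized counts in the La EC10 libraries, 1189, 1265 and 1570.0 at La EC50, 1176, 1432 and 1368 at Yb EC10 and 1113, 1017 and 1078 at Yb EC50. Control libraries had 1268, 999 and 1208. It was above control throughout at La EC10, overlapped with control in the other groups, and passed in none, 0.26 ± 0.11 (limma adjusted p = 0.103) at La EC10 and -0.11 ± 0.11 (limma adjusted p = 0.439) at Yb EC50. Of the other small subunits, QCR6 rose at Yb EC50 (0.29 ± 0.071, limma adjusted p = 0.00522), QCR9 at Yb EC10 (0.41 ± 0.15, limma adjusted p = 0.0452) and QCR8 in none. QCR2 rose by 0.42, 0.34, 0.36 and 0.32 (La EC10, La EC50, Yb EC10 and Yb EC50). COR1 rose by 0.25, 0.25 and 0.31 and RIP1 by 0.29, 0.24 and 0.37 (La EC10, Yb EC10 and Yb EC50). The CYT1 call at La EC10 was lost without La EC10 library 13 or 15 or control library 2 or 3 (limma adjusted p 0.0592 to 0.116), and the QCR10 call at La EC10 without La EC10 library 15 or control library 3 (limma adjusted p 0.0524 to 0.0556), at La EC50 without La EC50 library 10 or 12 or control library 2 or 3 (limma adjusted p 0.0656 to 0.133) and at Yb EC50 without Yb EC50 library 4 or control library 3 (limma adjusted p 0.0517 to 0.0635). The COR1 call was lost at La EC10 without control library 1 or 2 (limma adjusted p 0.0626 to 0.0656) and at Yb EC10 without control library 1 (limma adjusted p = 0.0564). The RIP1 call was lost at La EC10 without control library 2 (limma adjusted p = 0.0739) and at Yb EC10 without Yb EC10 library 7 or 9 or control library 1 or 2 (limma adjusted p 0.066 to 0.125). The QCR9 call was lost in 8 of 15 such omissions (limma adjusted p 0.0532 to 0.207).

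Of the cytochromes c, the soluble carriers between complexes III and IV, the hypoxic form CYC7 rose with Yb and the aerobic form CYC1 did not pass the test in any group. CYC7 (YEL039C, chromosome V, 79636 to 79977) had 93.3, 48.1 and 92.4 normalized counts in the La EC10 libraries, 49.9, 62.9 and 91.9 at La EC50, 133, 138 and 308 at Yb EC10 and 138, 132 and 127 at Yb EC50. Control libraries had 79.9, 44.7 and 51.4. All 6 Yb libraries were above all control libraries, and the change was 1.63 ± 0.32 (limma adjusted p = 0.00173) at Yb EC10 and 1.21 ± 0.32 (limma adjusted p = 0.00792) at Yb EC50. The La groups overlapped with control, 0.39 ± 0.32 (limma adjusted p = 0.431) at EC10 and 0.21 ± 0.32 (limma adjusted p = 0.660) at EC50. CYC1 (YJR048W, chromosome X, 526335 to 526664) had 529.7, 613 and 433 normalized counts in the La EC10 libraries, 666, 525 and 648 at La EC50, 437, 579 and 466 at Yb EC10 and 473, 481 and 438 at Yb EC50. Control libraries had 529, 553 and 484. The exposed groups overlapped with control, except that the Yb EC50 libraries were all below it, with -0.17, a change that did not pass (limma adjusted p = 0.299; 95% interval -0.44 to 0.10). Both CYC7 calls against control held when any 1 library was left out.

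In complex IV, 3 of 9 nuclear subunits rose at La EC10, none at La EC50, 3 at Yb EC10 and 2 at Yb EC50. They were COX4, COX6 and COX8 at La EC10, COX4, COX5B and COX6 at Yb EC10, and COX5B and COX6 at Yb EC50. The share called higher was 33.3% at La EC10 and at Yb EC10, beside 10.2% and 15.2% of all genes tested. At Yb EC50 it was 22.2%, near the 20.6% of all genes tested, and at La EC50 12.6% of all genes tested were called higher. At La EC50, limma had none at an adjusted p under 0.05 and 2 at an unadjusted p under 0.05, while edgeR called 0 and DESeq2 1. There, 2104 of the 5567 genes tested had an unadjusted p under 0.05 in limma, in either direction. COX5B (YIL111W, chromosome IX, 155222 to 155765), the hypoxic form of subunit 5, has 2 coding exons and had 423, 324 and 505 normalized counts in the La EC10 libraries, 357, 339 and 389 at La EC50, 645, 458 and 612 at Yb EC10 and 745, 562 and 549 at Yb EC50. Control libraries had 361, 259 and 290.3. Its Yb libraries were all above control and its La libraries overlapped with control. The change was 0.91 ± 0.17 (limma adjusted p = 0.00113) at Yb EC10 and 1.03 ± 0.17 (limma adjusted p = 0.000235) at Yb EC50, against 0.45 ± 0.17 (limma adjusted p = 0.0705) at La EC10 and 0.27 ± 0.17 (limma adjusted p = 0.266) at La EC50. The aerobic form COX5A (YNL052W, chromosome XIV, 531725 to 532186) had 845, 848 and 876 normalized counts in the La EC10 libraries, 746, 779.7 and 789 at La EC50, 809, 783 and 838 at Yb EC10 and 744, 730.2 and 847 at Yb EC50. Control libraries had 785, 783 and 855. Every exposed group overlapped with control, and the 4 log2 changes lay between -0.07 and 0.08 (limma adjusted p between 0.380 and 0.969).

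COX7 (YMR256C, chromosome XIII, 778945 to 779127), a small subunit of the oxidase, had 1077, 566 and 826 normalized counts in the La EC10 libraries, 843, 1199 and 1448 at La EC50, 537, 1169 and 1531 at Yb EC10 and 426, 529 and 420.4 at Yb EC50. Control libraries had 729, 416 and 843. The libraries of a group lay far apart, exposed and control libraries overlapped in every group, and no change against control passed: 0.33 ± 0.34 at La EC10, 0.84 ± 0.34 at La EC50, 0.64 ± 0.34 at Yb EC10 and -0.48 ± 0.34 at Yb EC50 (limma adjusted p between 0.0818 and 0.542). COX6, a subunit regulated by heme and glucose, rose by 0.30 ± 0.067 at La EC10, 0.28 ± 0.067 at Yb EC10 and 0.37 ± 0.067 at Yb EC50. COX4, which binds zinc, rose by 0.29 ± 0.077 at La EC10 and 0.22 ± 0.077 at Yb EC10, and COX8 by 0.31 ± 0.084 at La EC10. At Yb EC50 the values of COX9, COX12 and COX13 were -0.22, -0.28 and -0.23, and none passed (limma adjusted p between 0.0982 and 0.130). The COX4 call at La EC10 was lost without La EC10 library 13 or 15 or control library 2 or 3 (limma adjusted p 0.0539 to 0.0842) and at Yb EC10 in 8 of 15 omissions of 1 library (limma adjusted p up to 0.135), and the COX8 call without La EC10 library 13 or control library 2 or 3 (limma adjusted p 0.062 to 0.0865). The COX5B and COX6 calls were lost in none.

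In the ATP synthase, 7 of the 12 members rose at La EC10, 1 at La EC50, 1 at Yb EC10 and 4 at Yb EC50. The share was 58.3% at La EC10 and 33.3% at Yb EC50, beside 10.2% and 20.6% of all genes tested called higher. At La EC50 and Yb EC10 it was 8.33%, below the 12.6% and 15.2% of all genes tested. The largest median change was that at La EC10, 0.23 on the log2 scale, beside 0.08, 0.14 and 0.13 in the other groups. The catalytic-head subunits α (ATP1) and β (ATP2) and the stalk protein ATP5 rose at La EC10 and Yb EC50. The γ subunit (ATP3) and the stalk subunits ATP4 and ATP7 rose at La EC10. The ε subunit (ATP15) rose at Yb EC50. ATP20, subunit g, which takes part in joining the enzyme into dimers, rose in all but Yb EC50. It was the only one of the 12 members called at La EC50 and at Yb EC10. ATP20 (YPR020W, chromosome XVI, 599870 to 600217) had 531, 493 and 482 normalized counts in the La EC10 libraries, 488, 488 and 537 at La EC50, 452, 497 and 481 at Yb EC10 and 412, 443 and 341 at Yb EC50. Control libraries had 390.0, 376 and 413. The first 3 exposed groups lay above control, 0.35 ± 0.086 (limma adjusted p = 0.0103) at La EC10, 0.36 ± 0.086 (limma adjusted p = 0.00678) at La EC50 and 0.28 ± 0.086 (limma adjusted p = 0.025) at Yb EC10. The Yb EC50 libraries overlapped with control, 0.01 ± 0.086.

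ATP7 (YKL016C, chromosome XI, 407465 to 407989), a peripheral stalk subunit, had 1104, 1068 and 992 normalized counts in the La EC10 libraries, 907, 950.2 and 954 at La EC50, 868, 1036 and 898 at Yb EC10 and 935, 969 and 871 at Yb EC50. Control libraries had 854, 799 and 868. The La EC10 libraries were the highest and all above control, 0.33 ± 0.072 (limma adjusted p = 0.00545). The La EC50 and Yb EC50 libraries were also above control and the Yb EC10 libraries overlapped with it, with changes of 0.16 ± 0.072, 0.14 ± 0.072 and 0.15 ± 0.072 that did not pass. ATP14 (YLR295C, chromosome XII, 721999 to 722373), another stalk subunit, changed least over the 4 groups, with 742, 707 and 651 normalized counts in the La EC10 libraries, 684, 687 and 646 at La EC50, 622, 621 and 611 at Yb EC10 and 630.2, 519 and 649 at Yb EC50. Control libraries had 657, 566 and 600.2. It overlapped with control in every group, and its changes lay between -0.02 and 0.20. ATP17, subunit f, was below control in all 3 Yb EC50 libraries, -0.40 ± 0.22, which did not pass in the fit to all libraries (limma adjusted p = 0.168) and passed in the fit to those 2 groups alone (limma adjusted p = 0.013). The head and stalk subunits moved by small amounts: ATP1, ATP2, ATP3, ATP4 and ATP5 rose by 0.24, 0.29, 0.27, 0.17 and 0.24 at La EC10. Their SE was 0.053 to 0.067. Without La EC10 library 13 (limma adjusted p = 0.0541), ATP20 was not called at La EC10, nor at Yb EC10 without Yb EC10 library 8 or 9 or control library 1 or 2 (limma adjusted p 0.0523 to 0.0937). ATP7 at La EC10 was kept in all 15 omissions of 1 library, and the calls of ATP1, ATP2, ATP4, ATP5 and ATP15 were lost in 2 to 12 of them in at least 1 comparison (limma adjusted p up to 0.187).

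**Figure D2:**
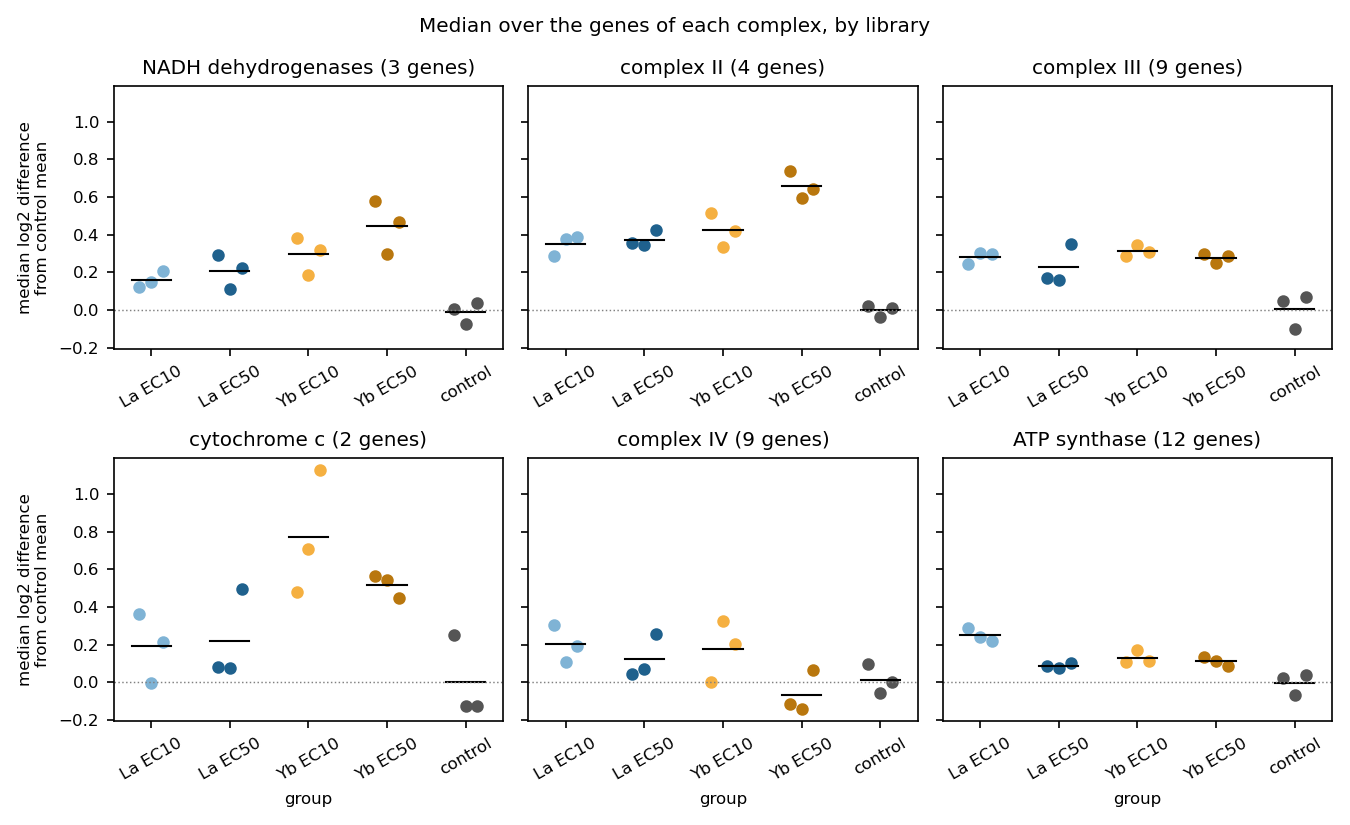
Median log2 difference from the control mean over the genes of each complex, 1 panel per complex and 1 dot per library, with the group mean as a line. Complex II lies between 0.29 and 0.74 in the 12 exposed libraries and between -0.04 and 0.02 in the control libraries, cytochrome c is highest at Yb EC10 with a wide spread, and complex IV at Yb EC50 lies between -0.14 and 0.06.

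The median log2 change of the 3 NADH dehydrogenases was 0.16 at La EC10, 0.21 at La EC50, 0.30 at Yb EC10 and 0.45 at Yb EC50. That of complex III was 0.26, 0.21, 0.36 and 0.31 in the same order. That of the cytochromes c was 0.19, 0.22, 0.77 and 0.52, and that of complex IV was 0.29, 0.11, 0.22 and -0.06. Per kilobase of coding sequence, the most abundant mRNAs in control cells were ATP17, COX9, ATP15, COX7 and ATP18, with 5323, 3922, 3918, 3621 and 3596 normalized counts per kb, and the least abundant were NDE2, CYC7, SDH1, NDI1 and CYT1, with 5.84, 172, 206, 362 and 394. NDE2, CYC7 and SDH1 were thus the 3 lowest per kb in control cells, and COX5B had 665 per kb. COX9, ATP18, COX7 and ATP15 have coding sequences of only 180 to 189 bases. Values per kb divide by coding length alone, so the ranks of such short genes are uncertain. Without division by length, ATP2 was highest in control cells, with 3310 normalized counts.

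The members include 3 pairs of alternative forms: the external NADH dehydrogenases NDE2 and NDE1, the cytochromes CYC7 and CYC1, and the oxidase subunits COX5B and COX5A. The upstream sequences of these 6 genes are shown because the first of each pair rose with Yb while its partner was not called lower or higher at Yb EC10. Each stretch runs 5′ to 3′ on the strand of the gene, from base 300 to base 101 before the start codon, in the RefSeq sequence of build R64. It stops there because the annotation gives no transcript starts, so that leader sequence is left out. Capitals mark matches that lie wholly in the stretch, on either strand, to CCAAT, with the base before it where the match is ACCAAT, to ATTGTT, the core of the element bound by the hypoxic repressor Rox1, or to AGGGG, the stress response element of Msn2 and Msn4.

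NDE2: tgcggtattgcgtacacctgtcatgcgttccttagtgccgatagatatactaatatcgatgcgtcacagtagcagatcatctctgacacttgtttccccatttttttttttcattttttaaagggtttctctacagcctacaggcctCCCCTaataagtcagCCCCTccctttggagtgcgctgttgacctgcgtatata
NDE1: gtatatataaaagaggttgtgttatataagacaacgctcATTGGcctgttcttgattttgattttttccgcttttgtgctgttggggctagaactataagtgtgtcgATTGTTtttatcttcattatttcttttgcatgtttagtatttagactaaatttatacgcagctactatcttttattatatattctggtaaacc
CYC7: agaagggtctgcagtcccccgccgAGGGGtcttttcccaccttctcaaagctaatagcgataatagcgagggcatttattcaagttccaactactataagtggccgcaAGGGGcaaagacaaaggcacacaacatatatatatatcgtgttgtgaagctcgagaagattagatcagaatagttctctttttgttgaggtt
CYC1: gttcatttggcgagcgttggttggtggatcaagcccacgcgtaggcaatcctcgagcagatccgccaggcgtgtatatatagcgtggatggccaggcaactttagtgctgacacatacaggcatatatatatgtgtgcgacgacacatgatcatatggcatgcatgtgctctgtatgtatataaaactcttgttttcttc
COX5B: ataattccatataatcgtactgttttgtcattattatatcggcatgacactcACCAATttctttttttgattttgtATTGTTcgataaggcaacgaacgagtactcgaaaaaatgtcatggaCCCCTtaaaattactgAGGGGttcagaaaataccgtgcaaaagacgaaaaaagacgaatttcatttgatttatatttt
COX5A: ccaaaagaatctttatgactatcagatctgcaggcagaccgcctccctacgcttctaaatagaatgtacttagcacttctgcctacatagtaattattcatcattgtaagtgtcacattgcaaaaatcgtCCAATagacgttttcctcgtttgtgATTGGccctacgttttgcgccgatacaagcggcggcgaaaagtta

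They lie at chrIV:302911-303110 on the plus strand (NDE2), chrXIII:556576-556775 on the minus strand (NDE1), chrV:80078-80277 on the minus strand (CYC7), chrX:526035-526234 on the plus strand (CYC1), chrIX:154922-155121 on the plus strand (COX5B) and chrXIV:531425-531624 on the plus strand (COX5A). In the whole 300 bases before the start codon, both strands, NDE2 and CYC7 held 2 matches to AGGGG each and no CCAAT or ATTGTT. COX5B held 2 matches each to CCAAT, to ATTGTT and to AGGGG, and both of its CCAAT matches lay within ACCAAT. NDE1 held 3 CCAAT and 1 ATTGTT, COX5A 2 CCAAT and 1 ATTGTT, and neither held AGGGG. CYC1 held no exact match to any of the motifs. Over all 39 genes, CCAAT was found in 33 (84.6%, beside 41.8% of the 6001 yeast genes with such a window), ACCAAT in 19 (48.7% beside 15.4%; it contains CCAAT), and ATTGTT in 17 (43.6% beside 34.1%). AGGGG was found in 17 (43.6% beside 22.2%) and the Hap1 motif in 1 gene, QCR6 (2.56% beside 0.133%). CCAAT was in 2 of 3 NADH dehydrogenase genes, 4 of 4 of complex II, 7 of 9 of complex III, 0 of 2 cytochrome c genes, 8 of 9 of complex IV and 12 of 12 of the ATP synthase. A match is a description of these letters and not a bound site, and a gene without a match may hold a site that differs from these letters. The Hap1 of BY4741 carries a Ty1 insertion.

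Within each pair, the share of the first form was higher with Yb than with La. Per coding length, COX5B reached 49.3% ± 9.98 of the COX5A level at La EC10, 47.5% ± 3.06 at La EC50, 71.3% ± 11.003 at Yb EC10 and 81.7% ± 18.2 at Yb EC50, against 38.1% ± 7.32 in control cells (SD, n = 3 libraries each). CYC7 was at 15.05% ± 6.72, 10.8% ± 3.30, 38.7% ± 21.8 and 27.6% ± 0.915 of CYC1 in the same exposed groups, against 10.9% ± 3.43 in control cells. NDE2 was at 0.712% ± 0.379, 0.456% ± 0.105, 4.02% ± 1.85 and 5.90% ± 1.35 of NDE1, against 0.911% ± 0.182 in control cells. On the log2 scale, 1 ratio per library, the 6 La libraries differed from the 6 Yb libraries by -0.65 for COX5B over COX5A, -1.36 for CYC7 over CYC1 and -2.96 for NDE2 over NDE1. For each pair all 6 La libraries lay below all 6 Yb libraries, which gives the smallest p that this exact 2-sided permutation test allows, 0.00216 (adjusted over the 6 ratio tests, 0.00433).

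Between the 12 exposed and the 3 control libraries, the log2 ratio of COX5B over COX5A was higher by 0.67 (exact permutation test, 2-sided, p = 0.0176, adjusted p = 0.0264). That call was lost without control library 2, with a difference of 0.59 (exact permutation test, adjusted p = 0.115), and without control library 3, with 0.61 (exact permutation test, adjusted p = 0.115). The ratios of CYC7 over CYC1 and of NDE2 over NDE1 differed by 0.87 and 0.77 and did not pass (exact permutation test, adjusted p = 0.161 and 0.451). The smallest p that 12 against 3 libraries allow is 0.0022. The exposed groups hold both metals, whose ratios lay apart. The gene sequences of the pairs, aligned with the intron of COX5B included, were 70.8% (COX5B and COX5A), 78.1% (CYC7 and CYC1) and 66.1% (NDE2 and NDE1) identical over the aligned bases. Their longest identical runs were 12, 35 and 11 bases. How reads that match both genes of a pair were counted is not given in the sources used here.

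**Figure D3:**
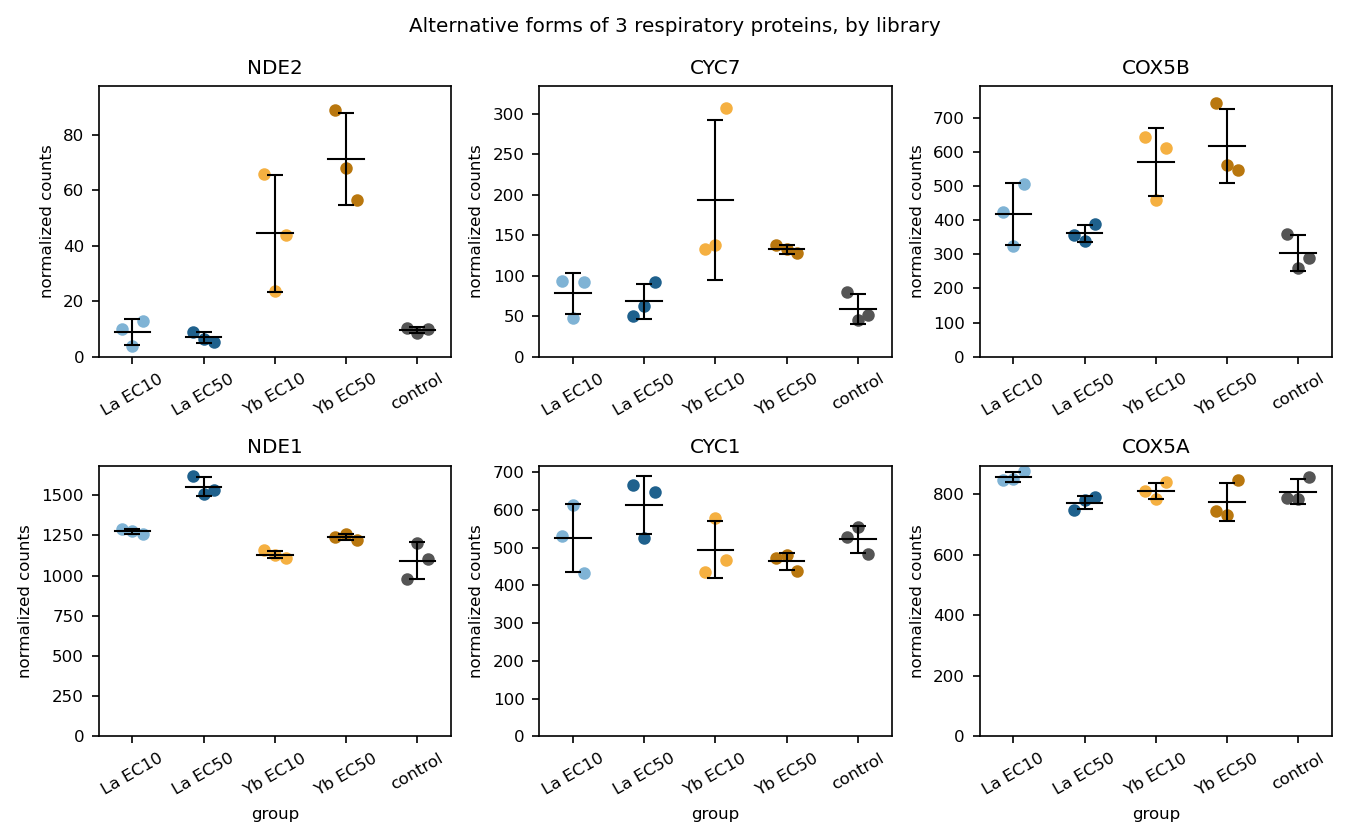
Normalized counts of NDE2, CYC7 and COX5B in the upper row and of their partners NDE1, CYC1 and COX5A in the lower row, 1 dot per library in the 5 groups, with the group mean and its SD (n = 3) as lines. In the upper row the 6 Yb libraries lie above all control libraries, and in the lower row the NDE1 dots are highest at La EC50, the exposed COX5A groups overlap with control, and so do those of CYC1 except that Yb EC50 lies below control.

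At EC50 the metals differed in 19 of the 39 genes, 8 higher and 11 lower with La than with Yb (limma), where 22.0% of all genes tested were called, 10.8% higher and 11.2% lower. Lower with La were all 4 subunits of complex II, NDI1, NDE2, CYT1, QCR6, CYC7, COX5B and COX6. Higher with La were NDE1, QCR7, CYC1, COX7, COX9, COX13, ATP17 and ATP20. The largest differences were those of NDE2, -3.19 ± 0.40 (limma adjusted p = 3.62e-05), and COX7, 1.32 ± 0.34 (limma adjusted p = 0.0115). CYC7 differed by -0.99 ± 0.32, ATP17 by 0.79 ± 0.22, COX5B by -0.76 ± 0.17, SDH4 by -0.44 ± 0.087 and CYT1 by -0.44 ± 0.082 (limma adjusted p between 0.00133 and 0.037). NDE1 was higher with La by 0.32 ± 0.066 (limma adjusted p = 0.00265), the opposite direction to NDI1, -0.24 ± 0.078 (limma adjusted p = 0.0384). The NDI1 difference was lost without La EC50 library 11 or 12 or Yb EC50 library 4 or 6 (limma adjusted p 0.0886 to 0.176), those of SDH2 and ATP17 in 4 such omissions, CYC1 and CYC7 in 5, QCR6 in 6, SDH1 in 7, QCR7 in 9 and SDH3 in 12. The count was 12 in edgeR, in DESeq2 and in limma on the 13 libraries of the count tests, with 7 higher and 5 lower, and 12, 9, 10 and 8 without La EC50 library 11, La EC50 library 12, Yb EC50 library 4 and Yb EC50 library 6. Without La EC50 library 12, COX7 was not called (limma adjusted p = 0.0592).

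At EC10 only NDE2 and CYC7 differed between the metals, both lower with La, where 5.89% of all genes tested were called in either direction and 4.19% lower. NDE2 differed by -2.23 ± 0.40 (limma adjusted p = 0.00228) and CYC7 by -1.25 ± 0.32 (limma adjusted p = 0.0307). The 3 La EC10 libraries lay below the 3 Yb EC10 libraries for both genes. The CYC7 call was lost without La EC10 library 14 or Yb EC10 library 9 (limma adjusted p 0.129 to 0.145). COX5B had -0.46 ± 0.17 (limma adjusted p = 0.137) and was called without Yb EC10 library 8, as was ATP7, which made 4 calls. The doses of the metals are matched by their effect level and not by concentration.

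Between the doses of 1 metal few members changed. At La EC50 against La EC10, 1 member was called, NDE1, higher by 0.28 ± 0.066 (limma adjusted p = 0.0408), where 1.78% of all genes tested were called in either direction and 0.988% of all genes tested were called higher. The call was lost in 11 of 15 omissions of 1 library (limma adjusted p 0.0521 to 0.168), and edgeR and DESeq2 called none. Of the other 38 members, 27 had a log2 value below 0 at La EC50 against La EC10, and 9 of these, among them ATP1, ATP2, ATP3, ATP5 and ATP7, had an unadjusted p under 0.05. Such a p was found in either direction for 811 of the 5567 genes tested. At Yb EC50 against Yb EC10 no member was called by limma or edgeR, where 1.10% of all genes tested were called. At an unadjusted p under 0.05, limma had 4 members higher and 8 lower, where 1078 of the 5567 genes tested had such a p in either direction. DESeq2 called 4 members lower, COX7, COX9, COX13 and ATP17, and 240 genes in all. Without Yb EC10 library 7, limma called 8 members. SDH2 and SDH4 were higher, and QCR7, QCR8, COX7, COX9, COX13 and ATP17 were lower. The lower ones, and SDH4, have coding sequences under 600 bases. Over all tested genes under 300 bases, the median difference from the control mean was -0.04 in Yb EC10 library 7. It was 0.20 and 0.26 in Yb EC10 libraries 8 and 9. Without La EC10 library 14, limma called 2 members. How many of all genes tested were called without these libraries was not counted. The La step differed from the Yb step in 2 members, COX9 by 0.56 ± 0.15 (limma adjusted p = 0.0487) and COX13 by 0.66 ± 0.16 (limma adjusted p = 0.0471), both higher with La, where 3.25% of all genes tested were called. That contrast was added after the data were seen.

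At Yb EC50 the median change of the shorter members was below that of the longer ones, and in the other 3 exposed groups the medians lay close together. The difference was not tested. Of the 39 genes, 25 have coding sequences under 600 bases, and the median is 462 bases, beside 1245 bases over the tested genes. The 12 genes called in no comparison with control were all under 600 bases, with a median of 318 bases. Of the 27 called in at least 1, 13 were, with a median of 639. Of the 14 longer genes, 12 rose at La EC10, 4 at La EC50, 8 at Yb EC10 and 12 at Yb EC50. Of the 25 shorter ones, 7, 3, 9 and 8 rose. Over all tested genes of the longer class, 10.7%, 13.1%, 15.2% and 21.4% were called higher in the same comparisons, and 8.65%, 11.1%, 16.2% and 18.1% of the shorter class. The median change was 0.22 for shorter and 0.26 for longer members at La EC10, 0.19 and 0.18 at La EC50, and 0.22 and 0.24 at Yb EC10. The median SE of the Yb EC50 change was 0.087 for shorter and 0.068 for longer members. At Yb EC50 the median change was 0.09 for shorter and 0.31 for longer members, where it was -0.10 over all 925 tested genes under 600 bases and -0.01 over the 4562 longer ones. Between La EC50 and Yb EC50, 7 of the 8 members higher with La were under 600 bases and 6 of the 11 lower ones, with median lengths of 339 and 597 bases, and over all tested genes under 600 bases 21.1% were higher and 9.84% lower with La.

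The level of short genes also moved between libraries of 1 group. Over all tested genes under 300 bases, the median difference from the control mean was -0.16, -0.11 and -0.16 in the Yb EC50 libraries, between -0.09 and 0.26 in the other exposed libraries, and 0.15, -0.08 and -0.04 in control libraries 1, 2 and 3. COX7 and ATP17 were lowest in the same library of 4 groups, namely La EC10 library 14, La EC50 library 10, Yb EC10 library 7 and control library 2. Whether length or its handling in the libraries plays a part in the changes of the short members was not tested. Of the members with values in every library above, SDH3, SDH4, QCR7, QCR10, CYC1, CYC7, COX5A, COX5B, COX7, ATP7, ATP14 and ATP20 are under 600 bases, and NDI1, NDE1, NDE2, SDH1 and CYT1 are longer.

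**Figure D4:**
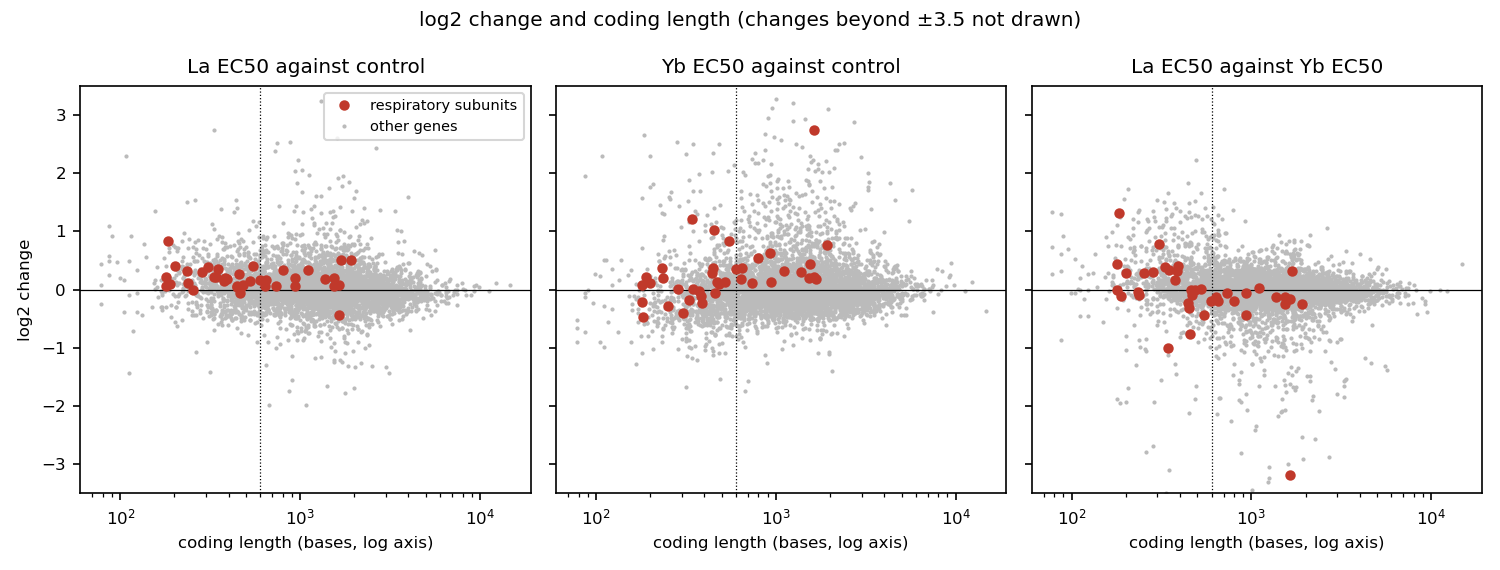
Log2 change against coding length (bases, log axis) for all tested genes with a length in grey and the 39 members in red, at La EC50 against control, Yb EC50 against control and La EC50 against Yb EC50; the dotted line marks 600 bases, and 11 genes, none of them a member, have a change beyond the drawn range of ±3.5. Members to the right of the line lie at or above 0.12 in the middle panel, and those to the left reach down to -0.48.

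Other genes of the pathway were examined by list. Of 3 other dehydrogenases that feed the chain, all 3 rose at both Yb doses, 1 at La EC50 and none at La EC10. Over all genes tested, 15.2% (Yb EC10), 20.6% (Yb EC50), 12.6% (La EC50) and 10.2% (La EC10) were called higher. DLD1, the D-lactate dehydrogenase, had 492, 464 and 469 normalized counts in the La EC10 libraries, 496, 492 and 496 at La EC50, 859, 690.0 and 748 at Yb EC10 and 1001, 928 and 925 at Yb EC50. Control libraries had 457, 535 and 483. Its Yb libraries lay above all others, by 0.63 ± 0.078 (limma adjusted p = 3.01e-05) at EC10 and 0.95 ± 0.078 (limma adjusted p = 1.92e-07) at EC50 against control. The La values were -0.05 at EC10 and 0.01 at EC50. CYB2, the L-lactate dehydrogenase that reduces cytochrome c, had 0.28 at La EC10 and -0.27 at La EC50, where its libraries were all below control without passing the test. It rose by 0.97 ± 0.20 (limma adjusted p = 0.00271) at Yb EC10 and 1.40 ± 0.20 (limma adjusted p = 7.49e-05) at Yb EC50. GUT2, the mitochondrial glycerol-3-phosphate dehydrogenase, rose by 0.59 ± 0.16 (limma adjusted p = 0.0127) at La EC50, 0.62 ± 0.16 (limma adjusted p = 0.00849) at Yb EC10 and 0.87 ± 0.16 (limma adjusted p = 0.000565) at Yb EC50. The La EC50 call was lost without La EC50 library 10 (limma adjusted p = 0.0614).

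HAP4, the activating subunit of the Hap complex, rose with La and not with Yb. It had 443, 459 and 458 normalized counts in the La EC10 libraries, 610.3, 595 and 673 at La EC50, 345, 338 and 356 at Yb EC10 and 412, 398 and 427 at Yb EC50. Control libraries had 362, 370.4 and 404. The La EC10 and La EC50 libraries lay above all others, and the change against control was 0.26 ± 0.065 (limma adjusted p = 0.0113) and 0.72 ± 0.065 (limma adjusted p = 7.33e-07), beside -0.13 ± 0.065 (limma adjusted p = 0.148) at Yb EC10 and 0.12 ± 0.065 (limma adjusted p = 0.140) at Yb EC50. The difference between the metals passed at EC10, 0.39 ± 0.065 (limma adjusted p = 0.00137), and at EC50, 0.60 ± 0.065 (limma adjusted p = 9.58e-06), and so did the step between the La doses, 0.46 ± 0.065 (limma adjusted p = 0.00141). The La EC50 group, highest in HAP4, had 7 of 39 subunits called (17.9%), the fewest of the 4 groups. Of all genes tested, 12.6% were called higher in that group. After scaling all libraries to equal totals, the La EC50 group had 20 and was still the lowest. The lower La dose then had 24, and either dose of Yb had 26. That scaling put the median change of all genes at La EC50 at 0.112. Whether the HAP4 level and the subunit changes are linked was not tested. Of the 9 genes of this list (HAP1 to HAP5, ROX1, MOT3, HEM1 and HEM13), HAP5 and HAP1 rose at Yb EC50, by 0.30 ± 0.10 and 0.30 ± 0.097. HEM13, a heme synthesis enzyme repressed by heme through Rox1, fell there by 0.26 on the log2 scale (limma adjusted p = 0.00955). ROX1 was at 0.02, 0.19, -0.06 and -0.07 (La EC10, La EC50, Yb EC10 and Yb EC50) and was called in none. The HAP4 calls held when any 1 library was left out. That of HAP1 was lost without Yb EC50 library 4 or control library 1 or 2 (limma adjusted p 0.072 to 0.114) and that of HAP5 without Yb EC50 library 4 or 6 or control library 1 or 2 (limma adjusted p 0.061 to 0.118).

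Of 8 other nuclear subunits and associated proteins (COX26, RCF1, RCF2, ATP19, TIM11, INH1, STF1 and STF2), 2 rose at La EC10, 3 at La EC50, 4 at Yb EC10 and 5 at Yb EC50, and RCF2 fell at both Yb doses. The shares that rose were 25%, 37.5%, 50% and 62.5%, beside 10.2%, 12.6%, 15.2% and 20.6% of all genes tested. STF1 and INH1, which inhibit ATP hydrolysis by the ATP synthase, rose in all 4 groups: STF1 by 0.91, 0.83, 1.26 and 1.68 and INH1 by 0.76, 0.31, 0.57 and 0.56 (La EC10, La EC50, Yb EC10 and Yb EC50). STF2, a stabilizing factor named from its binding to the same enzyme, rose with Yb, by 2.24 ± 0.30 and 1.59 ± 0.30, and had 0.53 ± 0.30 and 0.57 ± 0.30 with La. COX26, a small protein of the respiratory supercomplexes, rose by 1.63 ± 0.36 at Yb EC10 and 1.77 ± 0.36 at Yb EC50, with 82.9, 30.05 and 66.4 and 64.4, 57.6 and 60.1 normalized counts, against 28.004, 15.97 and 11.02 in control libraries. The INH1 call at La EC50 was lost without La EC50 library 10 or 12 or control library 2 or 3 (limma adjusted p 0.0667 to 0.122), and those of RCF2 at either Yb dose in 5 of the 15 omissions of 1 library (limma adjusted p up to 0.154).

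Assembly factors are set beside the share of all genes tested that were called higher, 10.2% at La EC10, 12.6% at La EC50, 15.2% at Yb EC10 and 20.6% at Yb EC50. Of 11 genes of complex II and III assembly, 2, 4, 4 and 6 rose in the same order (18.2%, 36.4%, 36.4% and 54.5%), and none fell. SDH5, which attaches FAD to SDH1, rose in all 4 groups, by 0.39, 0.36, 0.53 and 0.69 (La EC10, La EC50, Yb EC10 and Yb EC50). CBP4 of complex III assembly also did, by 0.45, 0.57, 0.67 and 0.76. SDH6, another complex II assembly factor, rose with Yb at both doses and with La at EC50, by 1.51 (Yb EC10), 0.93 (Yb EC50) and 0.87 (La EC50). Of 19 genes of complex IV assembly, 5, 2, 3 and 7 rose (26.3%, 10.5%, 15.8% and 36.8%), which at La EC50 and Yb EC10 is near the share of all genes. COX20, a chaperone of the mitochondrially encoded COX2, rose in all 4 groups, by 0.32, 0.40, 0.45 and 0.32. COX15, of heme A synthesis, rose with Yb, by 0.28 and 0.42. PET191 rose at La EC10, by 0.49. Of 6 genes of ATP synthase assembly, 2, 1, 1 and 2 rose (33.3%, 16.7%, 16.7% and 33.3%). ATP22, needed for translation of the mitochondrially encoded ATP6, rose in all 4 groups, by 0.44, 0.61, 0.35 and 0.46. ATP12, a chaperone of the catalytic head, rose at La EC10 and Yb EC50, by 0.37 and 0.30. Of 11 genes of ubiquinone synthesis, 3, 3, 4 and 6 rose (27.3%, 27.3%, 36.4% and 54.5%). COQ6 was called in all 4 groups, by 0.42, 0.31, 0.35 and 0.61. COQ4 rose with Yb, by 0.44 and 0.77, and COQ3 in all but La EC10, by 0.33, 0.38 and 0.45. Of the calls named here, 14 were lost in 1 to 7 of the 15 omissions of 1 library (limma adjusted p up to 0.199): SDH5 and COX20 at La EC10 and La EC50, COX20 and SDH6 at Yb EC50, SDH6, COQ3 and COQ6 at La EC50, COX15 and COQ4 at Yb EC10, PET191 and ATP12 at La EC10 and ATP12 at Yb EC50.

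**Figure D5:**
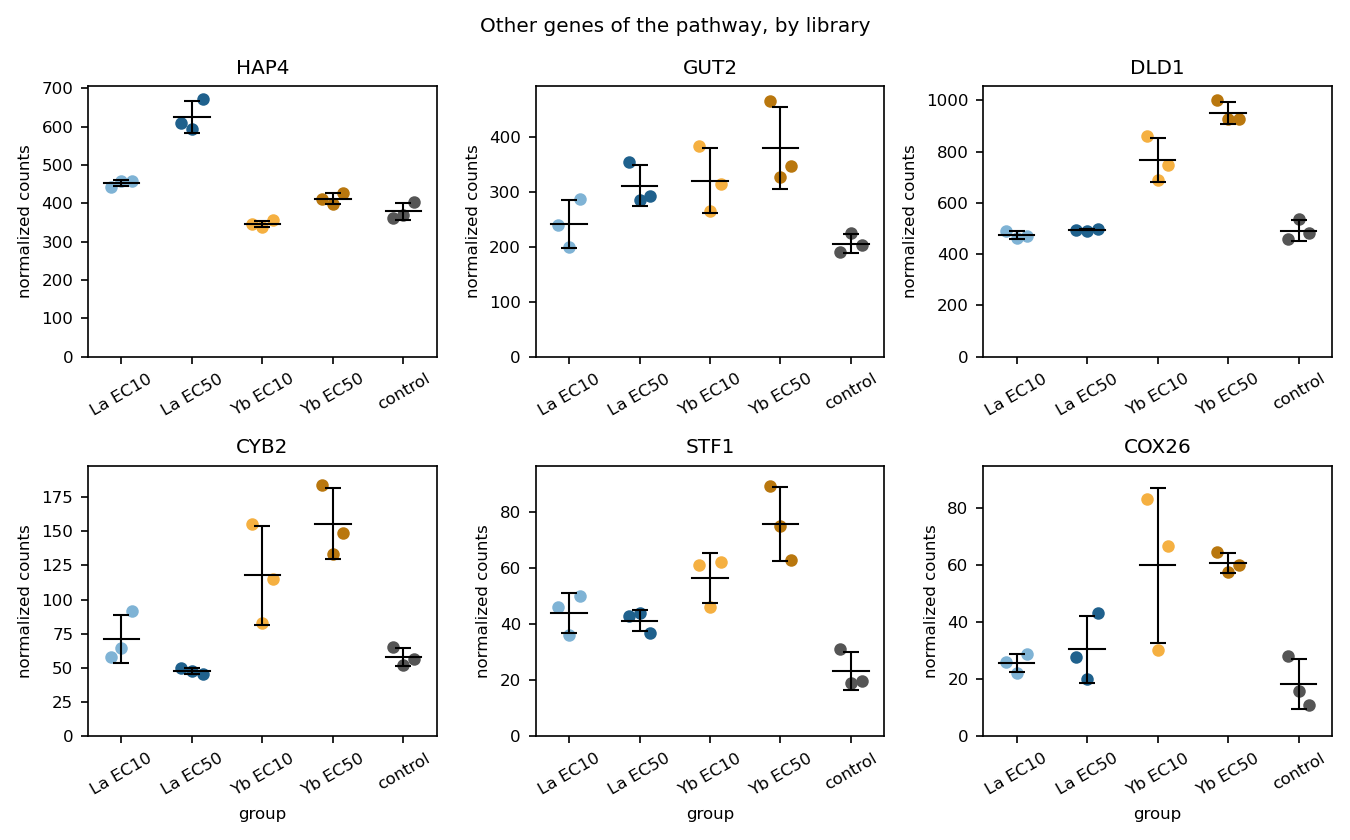
Normalized counts of HAP4, GUT2, DLD1, CYB2, STF1 and COX26 in the 15 libraries, 1 dot per library in the 5 groups, with the group mean and its SD (n = 3) as lines. HAP4 is highest at La EC50, DLD1 and CYB2 at Yb EC50, and STF1 lies above control in the exposed groups.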

How the data were processed

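The deposited table gave, per the file headers and values, the signal of each library as normalized counts: the authors' gene counts divided by 1 size factor per library, for 6600 identifiers, beside 5 columns of group means that were not used. The submitters' processing notes list, without roles or order, DESeq2 1.14.1, HTSeq 0.6.1p1, TopHat2 2.1.1 and FastQC 0.67, beside the genome build R64. Libraries were strand-specific, per the labels, but the strand setting of the counting is not given in the sources used here. No member overlaps another gene of the RefSeq annotation. Identifiers without a RefSeq match have no coordinates here, so an overlap of members with them was not checked. In each library 1 read was worth 0.901 to 1.22 normalized counts. Within a tolerance of 0.01, 100% of the values were whole multiples of it, which gave totals of 5629666 to 7183175 reads. A count of 0 allows up to 3 reads, a limit that covers counting error only. Columns carry a running number from 1 to 15, by which libraries are named. Whether libraries of 1 group are separate cultures is not stated in the labels, and p-values cover the spread between these libraries alone, which may be technical.

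The 5567 genes averaging 10 or more normalized counts were tested in limma 3.58.1 (R 4.3.3) on log2(normalized count + 1), which understates the change of low genes: 1 fit to all 15 libraries, 1 coefficient per group, moderation with a mean-variance trend, 2-sided contrasts, Benjamini-Hochberg over all genes tested, called at an adjusted p under 0.05. Log2 changes are ± SE of the fit and group means ± SD (n = 3). Isoform ratios were tested by exact permutation. edgeR 4.0.16 (quasi-likelihood) and DESeq2 1.42.0 were run on the recovered reads of 13 libraries; La EC50 library 10 and La EC10 library 13, whose worth of 1 read is close to 1, were left out of them. The fit was also run on simulated counts with the same spread for all genes, which cannot show whether the calls hold in these libraries. Identifiers were matched to RefSeq of build R64 (5917 of 6600), which gave coordinates (1-based), coding lengths and the 300-base windows before the start codon.

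The members, lists, tests and naming rule were chosen with earlier results of these data known. Values in every library are given for the NADH dehydrogenases, the cytochromes c, COX5A and COX5B, and in each other complex for the 2 members whose mean change over the 4 comparisons with control was largest in absolute value and the one with the smallest, a mean in which opposite signs cancel. Of each other list, up to 3 called genes with the largest changes are named, and HAP4, HAP1 and ROX1. COX9, COX12, COX13, ATP17, HEM13, RCF2, INH1 and TIM11 are named beside the rule, after their values were seen. Other alternatives were another pseudocount, no filter, equal totals, quantile normalization, a fit to 2 groups, and leaving out each library.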

Additional observations from a re-analysis of the deposited data

Results flagged for a closer look

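The results below are flagged because the effects of La and Yb differed in a test of the difference itself; each value is a log2 difference, La minus Yb. Among the NADH dehydrogenases, NDI1 differed at EC50 by -0.24 (limma adjusted p = 0.0384), NDE1 by 0.32 (limma adjusted p = 0.00265) and NDE2 by -3.19 (limma adjusted p = 3.62e-05), and NDE2 differed at EC10 by -2.23 (limma adjusted p = 0.00228). In complex II, the EC50 difference was -0.25 (limma adjusted p = 0.0425) for SDH1, -0.20 (limma adjusted p = 0.0288) for SDH2, -0.19 (limma adjusted p = 0.049) for SDH3 and -0.44 (limma adjusted p = 0.00212) for SDH4. In complex III it was -0.44 (limma adjusted p = 0.00133) for CYT1, -0.23 (limma adjusted p = 0.0283) for QCR6 and 0.32 (limma adjusted p = 0.0473) for QCR7.

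For the cytochromes c it was 0.40 (limma adjusted p = 0.035) for CYC1 and -0.99 (limma adjusted p = 0.037) for CYC7, and CYC7 differed at EC10 by -1.25 (limma adjusted p = 0.0307). In complex IV it was -0.76 (limma adjusted p = 0.00459) for COX5B, -0.31 (limma adjusted p = 0.00369) for COX6, 1.32 (limma adjusted p = 0.0115) for COX7, 0.45 (limma adjusted p = 0.00582) for COX9 and 0.41 (limma adjusted p = 0.0187) for COX13. In the ATP synthase it was 0.79 (limma adjusted p = 0.0198) for ATP17 and 0.34 (limma adjusted p = 0.00969) for ATP20. Of all genes tested, 22.0% were called at EC50 and 5.89% at EC10. Among all tested genes under 600 bases, 21.1% were higher and 9.84% lower with La at EC50, beside 28% and 24% of the members of that length. On 13 libraries, limma, edgeR and DESeq2 each called 7 members higher and 5 lower at EC50. The step between the doses also differed between the metals, a contrast added after the data were seen: COX9 by 0.56 (limma adjusted p = 0.0487) and COX13 by 0.66 (limma adjusted p = 0.0471), where 3.25% of all genes tested were called. Leaving out 1 library lost each of these 2 calls in 12 of 15 omissions (limma adjusted p up to 0.133 for COX9 and 0.128 for COX13). Of the EC50 differences, SDH3 was lost in 12, QCR7 in 9, SDH1 in 7, QCR6 in 6, CYC1 and CYC7 in 5, NDI1, SDH2 and ATP17 in 4, ATP20 and COX13 in 2 and COX7 in 1 (limma adjusted p up to 0.237), and the others in none. At EC10, CYC7 was lost in 2.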

How the results depend on the processing

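No paired analysis was possible because the columns carry a running number and not the labels' replicate numbers. Counts of members called were within 1.5 times the main count under the alternatives not named here. At La EC10 (19 members) the count was 11 in limma on the 13 libraries of the count tests, which was added after the data were seen, 10 in edgeR and 10 in DESeq2. Scaling to equal totals, which put the median change of all genes at 0.080, 0.112, 0.072 and 0.114 in the 4 comparisons with control, gave 20 members at La EC50 (main 7) and 26 at Yb EC10 (main 17), none of them lower. La EC50 against La EC10 (1) gave 2 with no filter and 0 with the 2 groups alone, limma on 13 libraries, edgeR or DESeq2. Yb EC50 against Yb EC10 (0) gave 2 with equal totals, 2 with quantile normalization and 4 in DESeq2. La EC10 against Yb EC10 (2) gave 1 with no filter and 0 with the 2 groups alone. La EC50 against Yb EC50 (19) gave 12 in limma on 13 libraries, edgeR and DESeq2. The difference of the dose steps (2) gave 0 with no filter, 1 in limma on 13 libraries and 4 in DESeq2. The cause of these shifts was not tested; the 13-library fits hold 2 La libraries per dose.

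Leaving out 1 library at a time, the counts against control were 12 to 20 (La EC10), 6 to 9 (La EC50), 12 to 19 (Yb EC10) and 14 to 20 (Yb EC50). They were 0 to 1 for the La doses, 0 to 8 for the Yb doses, 1 to 4 for La EC10 against Yb EC10, 8 to 19 for La EC50 against Yb EC50, 0 to 7 for the difference of the dose steps and 20 to 30 in the F test. The exposed minus control differences in ratio were 0.587 to 0.825 (COX5B over COX5A, exact permutation, adjusted p 0.0165 to 0.115), 0.655 to 1.10 (CYC7 over CYC1) and 0.580 to 0.972 (NDE2 over NDE1); those of La minus Yb were -0.719 to -0.564, -1.51 to -1.16 and -3.18 to -2.82. Of the 85 calls of single members, 84 were kept with equal totals, 81 with quantile normalization, 74 with no filter, 69 with the 2 groups alone, 61 in edgeR, 62 in DESeq2 and 85 with a pseudocount of 0.5 or 8, and no direction reversed. NDE2, with 3.70 to 12.7 normalized counts outside the Yb groups, is the member that depth limits most.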

Other observations

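Among the ADP/ATP and phosphate carriers, AAC3, the hypoxic ADP/ATP carrier, fell in all 4 exposed groups, where the hypoxic forms COX5B and CYC7 rose with Yb. AAC3 had 154, 151 and 157 normalized counts in the La EC10 libraries, 136, 145 and 136 at La EC50, 154, 155 and 159 at Yb EC10 and 140.3, 157 and 158 at Yb EC50. Control libraries had 183, 197 and 174. The log2 change was -0.26 at La EC10, -0.41 at La EC50, -0.24 at Yb EC10 and -0.28 at Yb EC50 (limma adjusted p between 0.00139 and 0.0306); the calls other than that at La EC50 were lost in 2 to 5 of 15 omissions of 1 library. AAC1, a minor carrier, rose at Yb EC10, by 0.48 ± 0.15 (limma adjusted p = 0.0239), and PET9, the major carrier, and MIR1, the phosphate carrier, were called in none. TIM11, subunit e of the ATP synthase, was also higher at La EC50 than at Yb EC50, by 1.18 ± 0.27 (limma adjusted p = 0.00512), as were its short neighbours in the complex ATP17 and ATP20. The paralogs of complex II subunits SHH4 and YJL045W were called in no comparison with control, and SHH3 was too low to test.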
